A study of Homo sapiens with 10 samples.

Results

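ATF4 and 9 regulators that act with it or below it in the integrated stress response were followed in A375 cells, an established human melanoma line with an activating BRAF mutation. Genes were taken by symbol from the annotation of the array, and 9 of the 10 had a probe set, 1 each, among 18569 probe sets for 17492 named genes. ATF5 had no probe set with its symbol and has no value here. Both groups grew for 4 days in RPMI1640 with glutamine and serum, the treated one with 2 µg/ml doxycycline, and RNA of 5 samples per group was hybridised to Clariom S arrays. The series title names Omomyc, a mutant dimerisation domain of MYC that blocks MYC and MAX, and doxycycline commonly switches on such transgenes. The labels describe neither the construct, its promoter nor a clone. They name no sample as given doxycycline without Omomyc, so the effects of Omomyc and of doxycycline itself cannot be told apart. The labels say biological replica but name no separate cultures, so the p values given below cover only the variation among these samples, part of which may be technical.

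In the integrated stress response, kinases that sense missing amino acids, unfolded proteins, viral RNA or haem loss phosphorylate the translation initiation factor eIF2. General translation then falls while translation of ATF4 rises, through short upstream reading frames in its mRNA. ATF4 pairs with C/EBP proteins on response elements of genes for amino acid synthesis, amino acid uptake and feedback regulators, and many tumour lines rely on it for growth. An array sees the mRNA level and not the amount of ATF4 protein.

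Whole-array values were close between samples, which RMA, the processing used for these arrays, brings about by making their distributions alike. Median log2 signal was 5.02 to 5.10 on the 10 arrays and the first quartile 2.80 to 2.94, highest on doxycycline array 1. The number of arrays limits the precision. The MYC probe set, which may also detect a MYC-derived transgene, rose from 6.06 ± 0.12 to 6.68 ± 0.18 log2 units (SD, n = 5). Of 9 measured melanocyte and melanoma markers, PMEL, MLANA, TYR and TYRP1 lay below 2.80 in both groups, while SOX10, MITF, S100B, S100A1 and MIA lay above it. The summed linear signal of these 9 markers was 1489 to 1612 in control and 2068 to 2554 in doxycycline arrays. Keratinocyte markers summed to 26.2 to 32 and 27.5 to 32.7, leukocyte markers to 417 to 536 and 509 to 661, fibroblast markers to 79.2 to 101 and 160 to 187, and endothelial markers to 63.8 to 86.3 and 121 to 169. A linear sum is led by its brightest marker. That was CD68 for leukocytes (mean 8.84 in control and 9.04 log2 units with doxycycline) and KDR for endothelium (5.70 and 6.88). For fibroblasts it was PDGFRB (5.50 and 6.66), and LUM read 3.45 and 4.97. Below 2.80 in both groups were 2 of 4 leukocyte markers (PTPRC among them), 3 of 5 endothelial markers (PECAM1 among them), 3 of 5 keratinocyte markers and none of 4 fibroblast markers. The part of these shifts in the results below was not tested.

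The DNA element that ATF4 and C/EBP proteins bind was looked for near the start sites first. Windows from 250 bases before to 50 after each RefSeq start site (GRCh38.p14) were searched on both strands for the core TGATGNAA, for the E-box CACGTG bound by MYC and MAX, and for the cyclic AMP response element TGACGTCA. No occurrence printed here overlapped another of these motifs. The core was present for 3 of the 10 genes, CHAC1, CEBPG and ATF3, against 4.46% of 27305 genes with a window. Among the relatives JDP2 held it too. Of 26 genes with a window in a list of known ATF4 targets for amino acid supply, 12 held it (46.2%); such targets became known partly through this element, so this share is no independent result. The following 30-base stretches, each from a different gene, were picked by their match to the core, so its fixed letters are alike by construction. The core is in capitals, and each stretch is written 5′ to 3′ on the strand where it reads TGATGNAA. ASNS, the asparagine synthetase gene, is included as a classical target.
CHAC1: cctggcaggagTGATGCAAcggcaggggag
CEBPG: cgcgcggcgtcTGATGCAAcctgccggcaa
JDP2: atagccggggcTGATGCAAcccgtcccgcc
ATF3: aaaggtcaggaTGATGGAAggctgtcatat
ASNS: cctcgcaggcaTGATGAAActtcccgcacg

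The CHAC1 stretch lies at chr15:40953251-40953280 (minus strand), with the core 209 to 202 bases before the start site. That of CEBPG is at chr19:33374060-33374089 (plus strand), 42 to 35 bases before the second of its 2 start sites. JDP2 holds it at chr14:75427995-75428024 (plus strand), 16 to 9 bases before a start site. For ATF3 it is at chr1:212565205-212565234 (plus strand), 191 to 184 bases before the upstream start site, and for ASNS at chr7:97872458-97872487 (minus strand), 68 to 61 bases before the start site. CHAC1, CEBPG and JDP2 share the letters TGATGCAA, found in 1.08% of genes with a window. A match is a run of letters and not a bound site, and which start sites A375 cells use was not examined.

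For CHAC1 the 250 bases before the start site (chr15:40953221-40953470, plus strand, 64.8% G or C) show the element, which reads on the other strand there and is in capitals.
CHAC1 promoter: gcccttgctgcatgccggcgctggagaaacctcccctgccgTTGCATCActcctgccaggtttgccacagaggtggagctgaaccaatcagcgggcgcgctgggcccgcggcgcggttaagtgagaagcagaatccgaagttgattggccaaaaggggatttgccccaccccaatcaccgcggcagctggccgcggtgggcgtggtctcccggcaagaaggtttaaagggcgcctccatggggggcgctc
The ATF4 promoter (chr22:39520309-39520558, plus strand, 58.4% G or C) has no core but is the only promoter among the 10 genes with an E-box, which begins 82 bases before the upstream start site and is in capitals. An E-box was present in 8.77% of genes with a window.
ATF4 promoter: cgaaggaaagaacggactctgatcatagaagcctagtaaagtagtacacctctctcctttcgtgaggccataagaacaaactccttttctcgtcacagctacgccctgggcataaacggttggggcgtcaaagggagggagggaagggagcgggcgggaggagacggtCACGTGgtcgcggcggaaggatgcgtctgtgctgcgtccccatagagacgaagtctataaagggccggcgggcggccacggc

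Doxycycline-treated cells had less mRNA of 8 of the 9 measured regulators, 3 by a large and 5 by a small factor. TRIB3, CEBPG and CHAC1 were 8.25-fold, 4.72-fold and 4.64-fold lower, whereas SESN2, ATF3, ATF4, DDIT3 and CEBPB were 1.41-fold to 1.62-fold lower. DDIT4 did not pass the test. Across all probe sets 17.2% fell and 20.9% rose at an adjusted p under 0.05 (limma, Benjamini-Hochberg over 18569 probe sets), 4.04% fell by at least 1 log2 unit, which 3 of the 9 genes did, and 13.6% had every doxycycline array below every control array, which 8 of the 9 did. The median log2 fold change of the 9 genes was -0.61, against 0.04 over all probe sets. In bulk RNA, fewer cells of a type and less RNA per cell cannot be told apart.

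**Figure D1:**
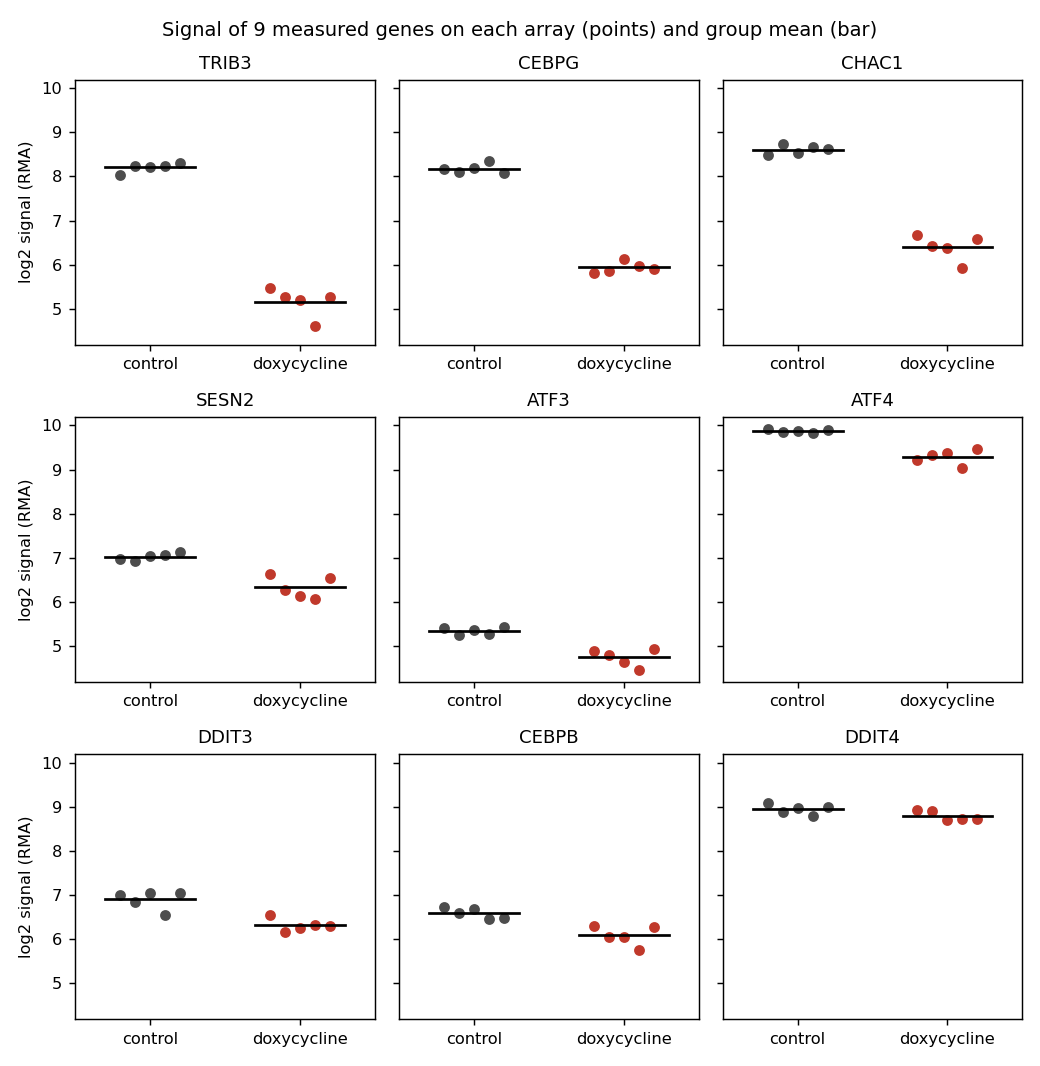
Log2 RMA signal (vertical axis) of the 9 measured genes on the 5 control and 5 doxycycline arrays, with a point per array, in order of replicate number within a group, and a bar at the group mean. TRIB3, CEBPG and CHAC1 are separated by 1.81 to 2.57 log2 units between the nearest arrays of the groups, while the DDIT4 groups overlap. Heights of different genes are not comparable, since each probe set has its own affinity.

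ATF4 (chr22:39520559-39522686, GRCh38.p14 here and below) encodes the transcription factor at the centre of this response. Its log2 signal was 9.92, 9.86, 9.87, 9.83 and 9.90 on the control arrays and 9.21, 9.33, 9.38, 9.04 and 9.47 on the doxycycline arrays. All 5 doxycycline arrays lay below all control arrays, by at least 0.37 log2 units. The log2 fold change was -0.59 ± 0.09 (SE, n = 5 per group), a 1.51-fold fall (adjusted p = 6.62e-05, limma). The spread grew from an SD of 0.04 in control to 0.16 with doxycycline.

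The partners of ATF4 on DNA did not fall equally. CEBPG (chr19:33373709-33382686), a short C/EBP protein without an activation domain of its own that pairs with ATF4, read 8.17, 8.09, 8.19, 8.35 and 8.08 in control and 5.82, 5.87, 6.14, 5.96 and 5.91 with doxycycline. The groups were 1.95 log2 units apart at their nearest arrays, and the spread within them was alike (SD 0.11 and 0.12). Its log2 fold change was -2.24 ± 0.09 (adjusted p = 9.69e-11, limma). CEBPB (chr20:50190583-50192690), an activator that also partners ATF4, read 6.71, 6.59, 6.69, 6.44 and 6.48 in control and 6.30, 6.05, 6.05, 5.75 and 6.27 with doxycycline. These groups came within 0.14 log2 units of each other without overlap. CEBPB fell by 0.50 ± 0.11 on the log2 scale (adjusted p = 0.00177, limma), which was 1.74 ± 0.15 log2 units less than CEBPG (exact two-sided permutation test, p = 0.00794, adjusted p = 0.0125 over 11 pairs of related genes).

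ATF3 and DDIT3 are bZIP factors that ATF4 induces when stress persists. ATF3 (chr1:212565407-212620777), which mostly represses, read 5.42, 5.24, 5.35, 5.28 and 5.44 in control and 4.88, 4.78, 4.64, 4.46 and 4.93 with doxycycline, a log2 fold change of -0.61 ± 0.10 (adjusted p = 1.33e-04, limma). DDIT3 (chr12:57516588-57520517) encodes CHOP, which promotes cell death under lasting endoplasmic reticulum stress. It read 6.99, 6.85, 7.05, 6.55 and 7.04 in control and 6.54, 6.16, 6.25, 6.32 and 6.30 with doxycycline. Control array 4 was low and doxycycline array 1 high, and they came within 0.01 log2 units of each other, the narrowest gap among the 8 genes that fell. DDIT3 fell by 0.58 ± 0.11 on the log2 scale (adjusted p = 4.90e-04, limma).

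TRIB3 and CHAC1, which are induced by ATF4 with CHOP, fell far more than either factor. TRIB3 (chr20:380760-397559), a pseudokinase that binds ATF4 and AKT and restrains the response, read 8.04, 8.24, 8.21, 8.24 and 8.31 in control and 5.48, 5.27, 5.20, 4.61 and 5.26 with doxycycline. Its log2 fold change of -3.04 ± 0.13 (adjusted p = 2.65e-10, limma) ranked 19 from the lowest of all probe sets. CHAC1 (chr15:40953471-40956512), an enzyme that breaks down glutathione, read 8.48, 8.73, 8.52, 8.67 and 8.63 in control and 6.67, 6.42, 6.37, 5.92 and 6.59 with doxycycline, a log2 fold change of -2.21 ± 0.12 (adjusted p = 3.07e-09, limma). For both genes doxycycline array 4 was the lowest, and every doxycycline array stayed at least 1.81 log2 units below the control arrays.

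SESN2 (chr1:28259518-28282491) and DDIT4 (chr10:72273924-72276036) restrain the growth kinase complex mTORC1, SESN2 as a leucine sensor and DDIT4 (REDD1) through the TSC complex. SESN2 read 6.97, 6.92, 7.05, 7.06 and 7.13 in control and 6.63, 6.26, 6.14, 6.07 and 6.53 with doxycycline. It fell by 0.70 ± 0.11 on the log2 scale (adjusted p = 1.09e-04, limma), with doxycycline arrays 1 and 5 nearest to control. DDIT4 read 9.08, 8.89, 8.97, 8.78 and 9.0 in control and 8.92, 8.90, 8.70, 8.73 and 8.71 with doxycycline. Its groups overlapped, and its log2 fold change of -0.15 did not pass (95% interval -0.33 to 0.03, adjusted p = 0.186, limma). The interval leaves room for a fall of up to 0.33 log2 units, smaller than the estimate for each of the 8 genes that fell.

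Neighbours in the order of change were then compared, with the order itself taken from these data. TRIB3 fell by 0.80 ± 0.19 log2 units more than CEBPG, CHAC1 by 1.52 ± 0.09 more than SESN2 and CEBPB by 0.34 ± 0.10 more than DDIT4 (exact two-sided permutation tests on the difference within each array, p = 0.00794, 0.00794 and 0.0159, adjusted p = 0.0317, 0.0317 and 0.0423 over 8 neighbours). Without any 1 of the arrays other than control 5 and doxycycline 5, these adjusted p were 0.0635, 0.0635 and 0.0847, where 9 arrays allow no p under 0.0159. CEBPG and CHAC1 differed by 0.03 ± 0.18 (adjusted p = 0.952). Between SESN2, ATF3, ATF4, DDIT3 and CEBPB, neighbours differed by 0.01 to 0.09 log2 units, with adjusted p between 0.317 and 0.952 in the same exact tests, so no order of adjacent genes can be read there; non-adjacent genes were not compared. With 5 arrays against 5 the smallest p such a test can give is 0.00794.

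The doxycycline arrays did not spread in the same way for all genes. Array 4 was the lowest doxycycline array for 6 of the 8 genes that fell, all but CEBPG and DDIT3, and array 1 was the highest for 5. Among all 3203 probe sets that fell, array 4 was the lowest for 24.2% and array 1 the highest for 32.8%. Of 29 amino acid supply targets of ATF4 that fell, array 4 was the lowest for 6 and array 1 the highest for 14. Without array 4 the log2 fold changes of TRIB3, CHAC1 and ATF4 were -2.91, -2.10 and -0.53, and all 8 genes still passed. Whether this array differed in culture or handling was not tested.

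**Figure D2:**
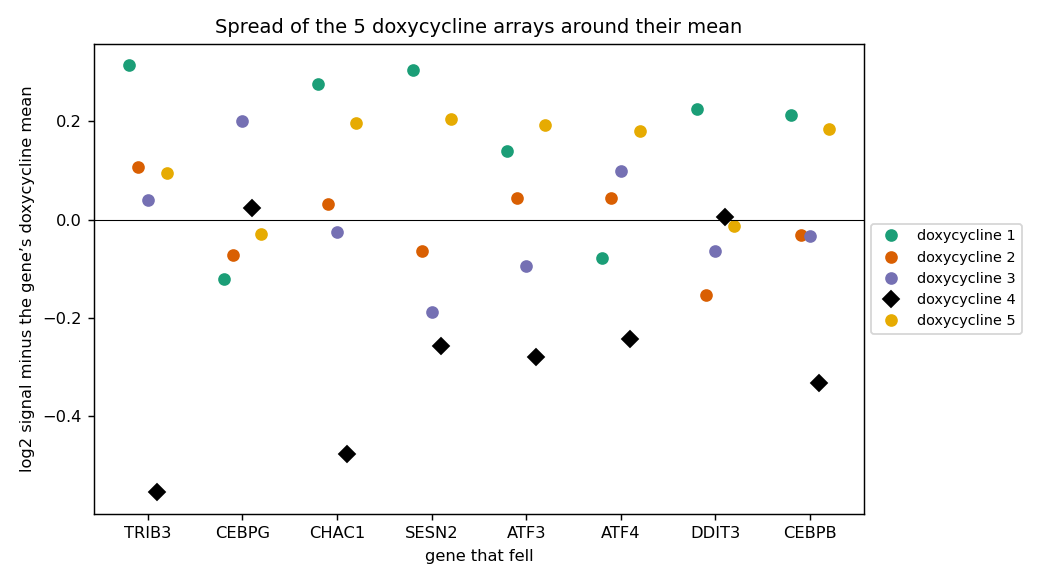
Deviation of each of the 5 doxycycline arrays from the gene's doxycycline mean (vertical axis, log2 units) for the 8 genes that fell (horizontal axis), with a colour per array and a diamond for array 4. Array 4 is the lowest point for 6 of the 8 genes.

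The 10 close relatives of these genes were divided. Among them 3 fell and 2 rose (all probe sets 17.2% and 20.9%), with a median log2 fold change of -0.03. TRIB1 and TRIB2, the other Tribbles pseudokinases, changed by -0.12 ± 0.08 and 0.07 ± 0.09 log2 units and did not pass. TRIB3 fell by 2.93 ± 0.15 more than TRIB1 and by 3.11 ± 0.17 more than TRIB2. CHAC2, the constitutive paralog of CHAC1, fell by 0.42 ± 0.13 (adjusted p = 0.0221, limma), 1.79 ± 0.21 less than CHAC1, and its groups overlapped. The CHAC2 call was lost without control array 1 or 3 or doxycycline array 2, 3 or 5 (adjusted p = 0.0527 to 0.0625). The 3 differences each had an exact permutation p of 0.00794 and an adjusted p of 0.0125 over the 11 pairs.

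Sestrins went in opposite directions. SESN1, a p53-induced paralog of SESN2, read 5.45, 5.10, 5.14, 5.44 and 5.43 in control and 6.26, 5.65, 6.0, 6.38 and 5.45 with doxycycline, a rise of 0.64 ± 0.16 log2 units (adjusted p = 0.00493, limma). SESN3, which FOXO factors induce, rose from 3.77 ± 0.10 to 4.31 ± 0.23 (SD, n = 5; adjusted p = 9.20e-04, limma). For each of them 1 doxycycline array lay just inside the control range, array 5 for SESN1 and array 2 for SESN3. The change of SESN2 minus that of SESN1 was -1.34 ± 0.24 log2 units, and minus that of SESN3 it was -1.24 ± 0.13 (exact permutation p = 0.00794 for each, adjusted p = 0.0125).

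The other pairs differed in direction and size. JDP2, a repressor closely related to ATF3 and with the core element before a start site, read 5.95, 5.58, 6.06, 5.74 and 5.67 in control and 4.72, 4.66, 4.66, 4.20 and 4.98 with doxycycline. It fell by 1.15 ± 0.13 (adjusted p = 5.92e-06, limma), 0.54 ± 0.10 more than ATF3 (exact permutation p = 0.00794, adjusted p = 0.0125). CEBPD, induced in inflammation, and CEBPA, a differentiation factor, changed by 0.19 ± 0.11 and 0.02 ± 0.12 and did not pass, although CEBPD did with array weights (adjusted p = 0.0459, limma). CEBPA was dim, at 3.03 in control and 3.05 with doxycycline, which leaves little room for a fall. The change of CEBPB minus that of CEBPD was -0.68 ± 0.19 (exact permutation p = 0.0159, adjusted p = 0.0218), and minus that of CEBPA it was -0.51 ± 0.20 (exact permutation p = 0.0397, adjusted p = 0.0485). The latter was lost without control array 1, 3 or 4 or doxycycline array 2, 3, 4 or 5 (adjusted p = 0.0776 to 0.0970). CEBPE, a granulocyte factor, fell by 0.56 ± 0.09 at a dim signal of 2.84 in control and 2.28 with doxycycline, and its change differed from that of CEBPB by 0.06 ± 0.15 (exact permutation p = 0.690). DDIT4L, the paralog of DDIT4 and dim in both groups at 2.36 and 2.28, changed by -0.08 ± 0.12, which was 0.07 ± 0.12 log2 units apart from DDIT4 (exact permutation p = 0.595).

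**Figure D3:**
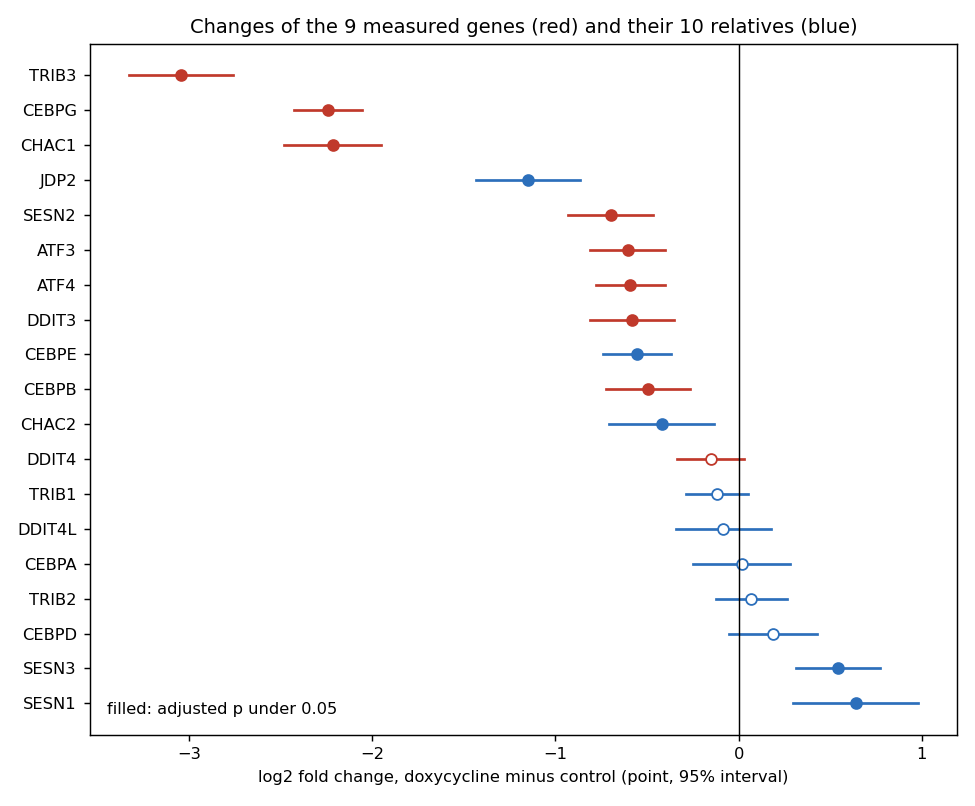
Log2 fold change of doxycycline minus control (horizontal axis) with its 95% interval for the 9 measured genes (red) and their 10 relatives (blue), filled where the adjusted p is under 0.05. TRIB3, CEBPG and CHAC1 lie below -2, JDP2 at -1.15, and SESN1 and SESN3 on the positive side at 0.64 and 0.54.

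Upstream, mRNA of 2 of the 4 eIF2 kinases rose, where 20.9% of all probe sets rose. EIF2AK3 encodes PERK, the eIF2 kinase of the endoplasmic reticulum. It read 6.11, 5.99, 6.17, 6.18 and 6.16 in control and 7.33, 7.29, 7.38, 7.55 and 7.31 with doxycycline, a 2.37-fold rise (log2 fold change 1.25 ± 0.08, adjusted p = 1.16e-08, limma). EIF2AK4 encodes GCN2, which senses uncharged tRNA, and read 7.42, 7.36, 7.43, 7.19 and 7.47 in control and 7.51, 7.70, 7.89, 7.81 and 7.91 with doxycycline (log2 fold change 0.39 ± 0.09, adjusted p = 0.00405, limma). At their nearest arrays the groups were 1.11 log2 units apart for EIF2AK3 and 0.04 for EIF2AK4, with doxycycline higher. The share of all probe sets with every doxycycline array above every control array was not counted. EIF2AK1 (HRI, the haem-regulated kinase) and EIF2AK2 (PKR, activated by double-stranded RNA) changed by -0.02 ± 0.09 and 0.11 ± 0.10 and did not pass; they are named to complete the kinases, after their values were seen.

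**Figure D4:**
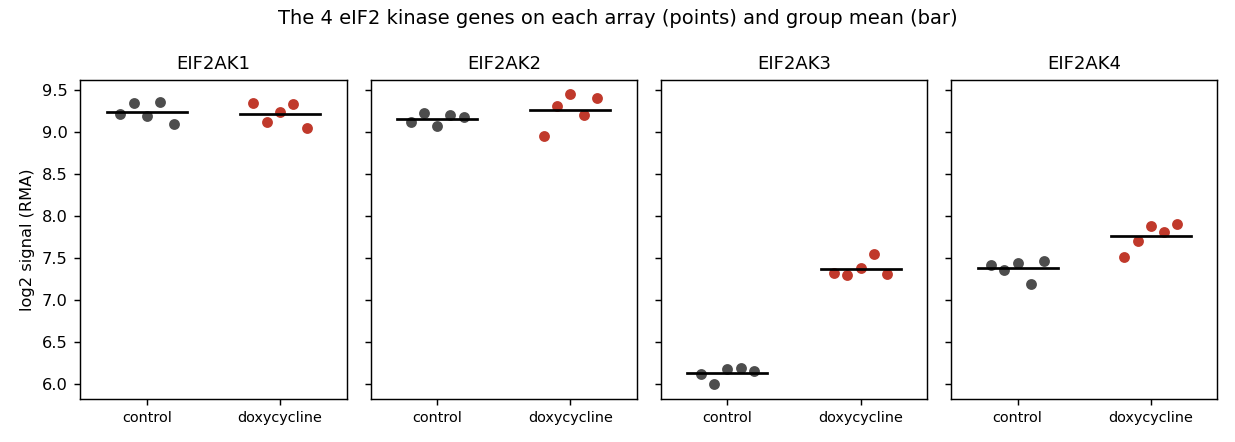
Log2 RMA signal (vertical axis) of the 4 eIF2 kinase genes on each of the 5 control and 5 doxycycline arrays (points, in order of replicate number) with the group mean (bar). EIF2AK3 moves from 6.12 to 7.37 with no overlap, and EIF2AK1 and EIF2AK2 overlap between groups.

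Of 20 measured genes for eIF2 kinases, eIF2, eIF2B and their regulators, 5 fell and 3 rose, with a median of -0.06, beside 17.2% and 20.9% of all probe sets. IMPACT, an inhibitor of GCN2 activation, fell most, from 6.16 ± 0.19 to 4.57 ± 0.24 (SD, n = 5; log2 fold change -1.59 ± 0.12). The eIF2 subunit genes EIF2S2 (-0.57 ± 0.08) and EIF2S1 (-0.27 ± 0.09) fell, as did OMA1, the mitochondrial protease that signals to HRI (-0.48 ± 0.11), and NCK1, an adaptor that opposes eIF2 phosphorylation (-0.44 ± 0.08). The third riser was DNAJC3 (P58IPK), an inhibitor of eIF2 kinases (0.32 ± 0.10). The EIF2S1 call was lost without control array 2, 3 or 4 or doxycycline array 2 (adjusted p = 0.0522 to 0.0640, limma). Levels of kinase mRNA do not show kinase activity, which was not measured.

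Downstream, known ATF4 targets for amino acid supply fell in nearly every case. Of 31 measured, 29 fell and none rose, against 17.2% and 20.9% of all probe sets, with a median log2 fold change of -1.36. The largest falls were in SLC7A11 (-3.84 ± 0.15), which imports cystine, ASNS (-3.80 ± 0.14), MTHFD2 of mitochondrial folate metabolism (-3.65 ± 0.09) and PSAT1 of serine synthesis (-3.24 ± 0.10). Of 24 other targets of ATF4 or CHOP 14 fell and 1 rose, with a median of -0.36. NUPR1, a stress-induced chromatin protein (-2.08 ± 0.12), EIF4EBP1, which blocks cap-dependent translation (-1.92 ± 0.11), the angiogenic factor VEGFA (-1.52 ± 0.08) and the tRNA exporter XPOT (-1.37 ± 0.11) fell most. The riser ATG12, an autophagy protein, changed by 0.24 ± 0.09 (adjusted p = 0.0444, limma), a call lost without control array 1, 4 or 5 or doxycycline array 2, 3, 4 or 5 (adjusted p = 0.0625 to 0.110). These lists were written from general knowledge with earlier results of these arrays known, so their direction is not independent evidence.

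Among 37 other genes of the bZIP family to which ATF4 belongs, 14 rose and 4 fell, beside 20.9% and 17.2% of all probe sets, with a median of 0.17 against 0.04. NFE2, a blood-lineage factor (1.66 ± 0.09, from a dim 2.69), and the AP-1 subunits FOS (1.23 ± 0.14) and JUN (1.21 ± 0.11) rose. The 4 that fell were the AP-1 subunit FOSL1 (-1.60 ± 0.09), the clock-linked repressor NFIL3 (-0.69 ± 0.09), the AP-1-type factor BATF3 (-0.60 ± 0.11) and XBP1, the factor spliced by IRE1 (-0.57 ± 0.08).

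For mTORC1, the complex that SESN2 and DDIT4 restrain, 6 of 28 genes fell and 3 rose, with a median of -0.02. These were 21.4% and 10.7% of the list, beside 17.2% and 20.9% of all probe sets. SEH1L, a part of both GATOR2 and the nuclear pore (-1.68 ± 0.10), the Rag GTPase RRAGD (-1.02 ± 0.11) and NPRL2 of GATOR1 (-0.86 ± 0.14) fell. The arginine sensor CASTOR1 (0.70 ± 0.13), the S-adenosylmethionine sensor SAMTOR (0.59 ± 0.08) and the Rag GTPase RRAGA (0.51 ± 0.11) rose.

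In the other arms of the unfolded protein response 7 of 25 genes fell and 5 rose (28% and 20%, beside 17.2% and 20.9% of all probe sets), with a median of 0.02 and no change as large as 1 log2 unit. XBP1 (above), its activating nuclease ERN1 (-0.46 ± 0.09) and the chaperone HYOU1 (-0.45 ± 0.08) fell. The risers were DNAJB9, a cochaperone that restrains ERN1 (0.53 ± 0.09), the ubiquitin ligase SYVN1 (0.36 ± 0.10), the chaperone CALR (0.34 ± 0.09), DNAJC3 and the ATF6-cleaving protease MBTPS1 (0.23 ± 0.08). The MBTPS1 call was lost without any of control arrays 1 to 4 or doxycycline arrays 1 to 4 (adjusted p = 0.0517 to 0.0957, limma). HSPA5, the main chaperone of this compartment, was measured at 10.63 ± 0.03 and 10.70 ± 0.06 (SD, n = 5) and did not pass; it is named after its value was seen.

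**Figure D5:**
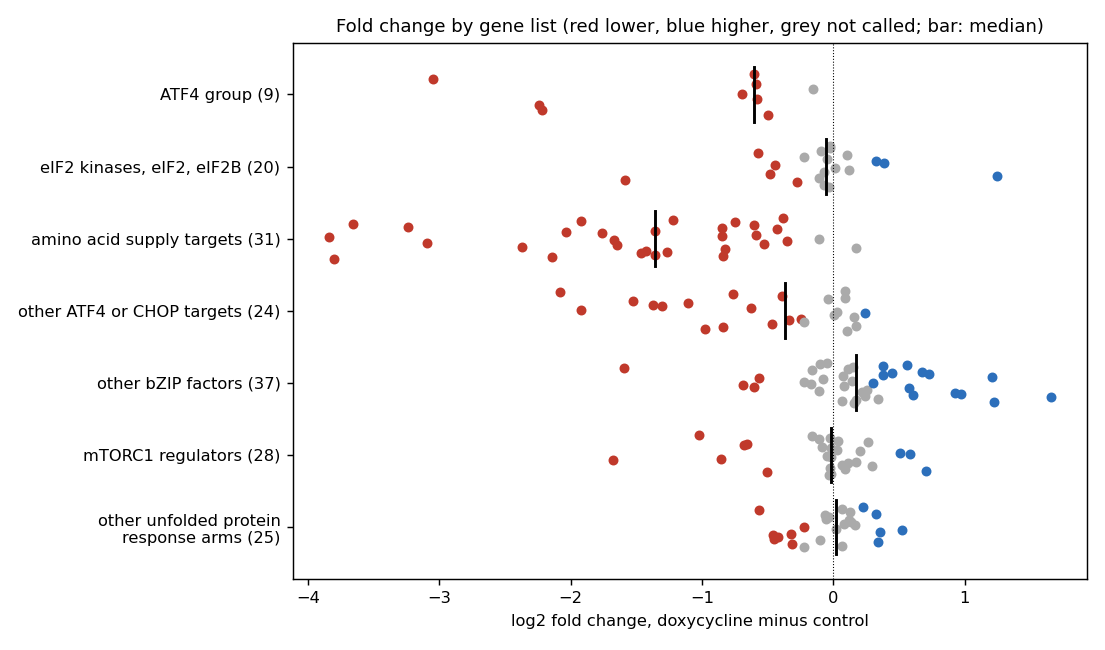
Log2 fold change of doxycycline minus control (horizontal axis) for each measured gene of 7 lists, with the number of genes in brackets, red for genes that fell, blue for genes that rose, grey for those that did not pass, and a bar at the list median. The amino acid supply targets have a median of -1.36 and no gene that rose, while the eIF2, mTORC1 and other unfolded protein response lists have medians between -0.06 and 0.02.

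Genes most like ATF4 and TRIB3 over the 10 arrays were found by the root mean square difference in log2 signal after each gene's control mean was subtracted, among 17502 named probe sets outside the group. HERPUD1, which helps clear misfolded proteins, lay nearest to ATF4 (0.079 log2 units), followed by EIF2S2 (0.083) and the cytokine gene IL1A (0.085), with log2 fold changes of -0.63, -0.57 and -0.63. ATF3 was the nearest within the group, at 0.10. For TRIB3 the nearest were FERMT1, an integrin activator (0.158), TRAP1, a mitochondrial chaperone (0.204), and the folate enzyme ALDH1L2 (0.209), with log2 fold changes of -3.0, -3.16 and -3.10. Within the group CHAC1 came nearest to TRIB3, at 0.592. This measure describes likeness of values on these arrays and carries no test. HERPUD1, EIF2S2 and ALDH1L2 were already members of the lists described above.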

How the data were processed

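The deposited values are log2 expression values of 18569 probe sets made with RMA, per the submitters' processing notes, which give no version and no further step. RMA makes the arrays alike in distribution, so a change in total RNA per cell is not seen, and dim probe sets show compressed fold changes. Symbols came from the platform annotation (17511 probe sets with 1 symbol, 0 with several, 1058 unnamed here). Scanner files were not used here.

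Doxycycline was compared with control (5 arrays each) by limma 3.58.1 (R 4.3.3; lmFit, then eBayes) in a model of group alone. Tests were two-sided, p values were adjusted by Benjamini-Hochberg across the whole array, and a call needs an adjusted p under 0.05. SE is the moderated standard error of limma; for differences between 2 genes it is the pooled standard error of the within-array difference, tested by exact permutation; the test of neighbours in order of change was chosen after seeing the data. The fit was tested on simulated data. The 10 genes and the other lists were chosen with earlier results of these data known. Genes named are the 10, their relatives, up to 4 called genes per list by size, called genes of a direction with at most 5, and the 3 nearest to ATF4 and to TRIB3, and 3 more said to be named after their values were seen. Named apart from this rule were MYC, the cell type markers, and GDF15, ATG3 and SLC38A2, whose calls were lost in several alternatives. Alternatives were filters on signal, other scalings, variance models, array weights, a replicate block and leaving out each array. Promoter sequences are from RefSeq (GRCh38.p14); all 10 genes and 8 of 10 relatives had a window that was used. Probe sets can also detect near-identical transcripts, such as pseudogenes.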

Additional observations from a re-analysis of the deposited data

Results flagged for a closer look

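In 6 of the groups of 5 arrays of named genes, 1 array stood apart by Dixon's criterion, which chance meets in about 1 in 20 groups; 110 groups were examined. Doxycycline array 1 was apart for 3 genes, at a log2 signal of 2.73 for DDIT4L (highest), 4.15 for IMPACT (lowest) and 4.60 for NFE2 (highest). Doxycycline array 5 was the lowest for NFIL3, at 5.38, and for SEH1L, at 6.23. Control array 5 was the lowest for EIF2S1, at 7.59. None of the 9 measured genes of the ATF4 group was among them.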

How the results depend on the processing

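Across 17 alternatives, TRIB3, CEBPG, CHAC1, SESN2, ATF4, DDIT3 and CEBPB kept their fall and call, ATF3 did so in the 16 that tested it (it lies just under the median signal), and DDIT4 passed in none (adjusted p = 0.0652 to 0.356). Of 102 called genes in the lists, 94 kept direction and call in the alternatives that tested them, 8 lost the call in at least 1 and 0 changed sign. Of 78 genes that were not called, 12 passed in at least 1 alternative and 24 changed sign in at least 1. No gene of the lists had several probe sets, so averaging them gave no other value. Among other ATF4 or CHOP targets the number that rose was 0 with quantile normalization, 2 with trend and robust eBayes, and 0 to 1 with 1 array left out. With 1 array left out, 12 to 14 of these targets fell, and 28 to 29 of the amino acid supply targets. Of 17 alternatives, the call was lost in 9 for GDF15 and 7 for ATG3 of the former list, and in 6 for SLC38A2 of the latter. Among the relatives 1 rose among probe sets above the median signal, where fewer genes were tested. With the stricter letters TGATGCAA in place of the core, 2 of the 10 genes had a match. Same-numbered arrays did not deviate together (correlations -0.437 to -0.007). Such correlations cannot show that same-numbered samples shared no culture or day, and the labels do not say. With a replicate block 6476 probe sets were called in place of 7078, 8 of the 9 genes fell, and 0 of the other ATF4 or CHOP targets rose. A paired sign-flip test cannot give a p under 0.0625, so under that replicate block no pair difference passed, at the same values: -2.93 and -3.11 for TRIB3 against TRIB1 and TRIB2, -1.34 and -1.24 for SESN2 against SESN1 and SESN3, -1.79 for CHAC1 against CHAC2, 0.54 for ATF3 against JDP2, and -0.51, -0.68 and 1.74 for CEBPB against CEBPA, CEBPD and CEBPG. Leaving out 1 array gave -0.63 to -0.41 for CEBPB against CEBPA. A loss of a call without 1 array reflects fewer arrays in part. Dim genes such as CEBPA, CEBPE, DDIT4L and NFE2 (control) lie near the first quartile, where fold changes are compressed.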

Other observations

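The E-box CACGTG was present in the promoter window of 18.8% of 590 genes that fell by at least 1 log2 unit and of 16.2% of 2532 genes that fell at all. It was present for 9.60% of 3011 genes that rose and 9.63% of 8586 that did not pass. For the ATF4 element core TGATGNAA the shares were 3.73%, 3.79%, 2.89% and 3.79% in the same order. For the cyclic AMP response element TGACGTCA they were 5.42%, 3.67%, 3.62% and 2.64%. These shares were counted after the gene calls were known and carry no test.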
